A study of Mus musculus with 7 samples.

Results

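Early response genes are transcribed within minutes of a signal, without new protein synthesis. The genes described here are 10 of this class outside the AP-1 family, Egr1, Egr2, Egr3, Ier2, Ier3, Ier5, Nr4a1, Nr4a2, Btg2 and Zfp36. They were taken by symbol from the deposited counts, and all 10 were among its 24421 gene symbols. The rule is a list of symbols with no threshold on a measured value, and it was set with earlier results of these data known. RNA-seq was done on LSK cells (Lin-Sca1+Kit+), the fraction of bone marrow in which the stem cells of blood and their multipotent progeny are found.

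There were 7 samples, of which replicates 1 to 4 were Ddx41+/+ and replicates 6 to 8 were Ddx41+/-. Marrow donors of both groups carried RosaCreERT2, a tamoxifen-activated recombinase expressed from a locus that is active in most cell types, and the Ddx41+/- donors also carried 1 floxed Ddx41 allele. Lethally irradiated BoyJ recipients of both groups received 1 mg tamoxifen per injection in 2 rounds of 5 days, and marrow was harvested for the sort at 8 weeks. The labels give no age or sex, name no marker in the gate that separates donor from remaining recipient cells, and do not say what share of cells had lost the floxed allele. A Ddx41+/- library numbered 5 was removed before deposit for a reason that is not given, and it was not analysed here.

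The transcription factors among these genes are the zinc-finger proteins Egr1, Egr2 and Egr3 and the orphan nuclear receptors Nr4a1 and Nr4a2, which carry a short signal into a change of gene expression. Nr4a receptors are known to restrain the proliferation of hematopoietic stem cells, and Egr1 to hold them in quiescence and in the niche. Zfp36 (tristetraprolin) binds AU-rich mRNAs and Btg2 binds the CCR4-NOT deadenylase, and both promote mRNA decay. Ier2, Ier3 and Ier5 are less well understood, with roles of Ier3 in cell survival and of Ier5 in the heat-shock response. Many of these genes are switched on by the ERK kinases through the factor SRF and by CREB.

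Total counts ranged from 32234499 to 43751290 per sample. Levels are given as CPM, the count of a gene relative to the scaled library size. The targeted gene, Ddx41, fell from a mean of 97.9 CPM (SD 6.43, n = 4) in Ddx41+/+ to 67.3 CPM (SD 2.63, n = 3) in Ddx41+/- samples (edgeR adjusted p = 0.0052), and the labels were used as given. All 10 genes of a list of LSK markers were detected, with Kit between 427.1 and 505.1 CPM and Cd34 between 646.7 and 830.0 CPM. Lists of markers of other cell types were also detected. Their summed levels overlapped between genotypes and ran over the 7 samples from 209.0 to 287.7 CPM for macrophages, from 96.4 to 425.7 CPM for the B lineage, from 234.9 to 294.4 CPM for T and NK cells (mostly Nkg7), from 53.4 to 89.7 CPM for late erythroid cells, and from 208.8 to 245.4 CPM for stroma and endothelium. Within these lists some defining genes were at or near 0, with Cd3e at most at 0.347 CPM, counts of Marco in 1 sample, and 0 counts of 4 globin genes in all samples. Others of the same lists were clearly detected. The macrophage marker Csf1r ran from 116.81 to 154.75 CPM, Lck of the T and NK list from 9.55 to 13.1 CPM, and the erythroid marker Slc4a1 from 18.5 to 42.6 CPM. The summed level of 10 neutrophil marker genes, however, was higher in every Ddx41+/- sample (1334.7 to 2283.3 CPM) than in any Ddx41+/+ sample (741.0 to 1255.1 CPM). Of these 10 genes 9 had an unadjusted p under 0.05, all higher in Ddx41+/-, where 761 of 13340 genes were higher at this threshold. Without overlap and higher in Ddx41+/- were 7 of the 10, where 4.85% of all genes were. The exception was Cxcr2, with a lower mean in Ddx41+/- (log2 fold change -0.24, edgeR adjusted p = 0.697). The median log2 fold change over the 10 was 0.84. Mmp9, a protease of neutrophil granules, passed with edgeR (log2 fold change 1.57, SE 0.21, adjusted p = 0.0068). The part of neutrophil transcripts in the levels of the early response genes was not tested.

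The first question was how strongly LSK cells expressed each gene. Levels of different genes were compared as CPM per kilobase of annotated exon, averaged over the 7 samples. Ier2 had the highest level (51.9 CPM per kb), followed by Zfp36 (41.7), Ier3 (13.3), Btg2 (8.47), Egr1 (5.99), Ier5 (4.60), Nr4a1 (3.0), Nr4a2 (0.859), Egr2 (0.183) and Egr3 (0.0451 CPM per kb). Sample ranges of neighbors in this order overlapped for Ier2 and Zfp36, for Btg2 and Egr1, and for Egr1 and Ier5. Within samples, Ier2 was above Zfp36 in 7 of 7, Btg2 above Egr1 in 5 of 7, and Egr1 above Ier5 in 5 of 7. Among the Egr factors Egr1 therefore had by far the highest level, and Egr2 and Egr3 had few counts.

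The genotype comparison asked whether loss of 1 Ddx41 allele went with other levels of these genes. None of the 10 genes passed the test. Of the 10 genes, 9 had enough counts to be tested and Egr3 did not. With the quasi-likelihood test of edgeR, 0 of 9 had a Benjamini-Hochberg (BH) adjusted p under 0.05, where 29 of 13340 genes (0.217%) passed. DESeq2 and limma-voom also gave 0 of 9. At an unadjusted p under 0.05, 2 of 9 passed, Btg2 and Zfp36, both with higher means in Ddx41+/-, where 10.6% of all genes passed in either direction. The CPM of the genotypes overlapped in all 9, while 4.85% of all genes were without overlap and higher in Ddx41+/- and 5.21% without overlap and lower. The median log2 fold change (Ddx41+/- minus Ddx41+/+) was 0.20 over the 9 genes and -0.0048 over all genes tested. Fold changes are given with a standard error (SE) derived from the F value of the test.

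**Figure D1:**
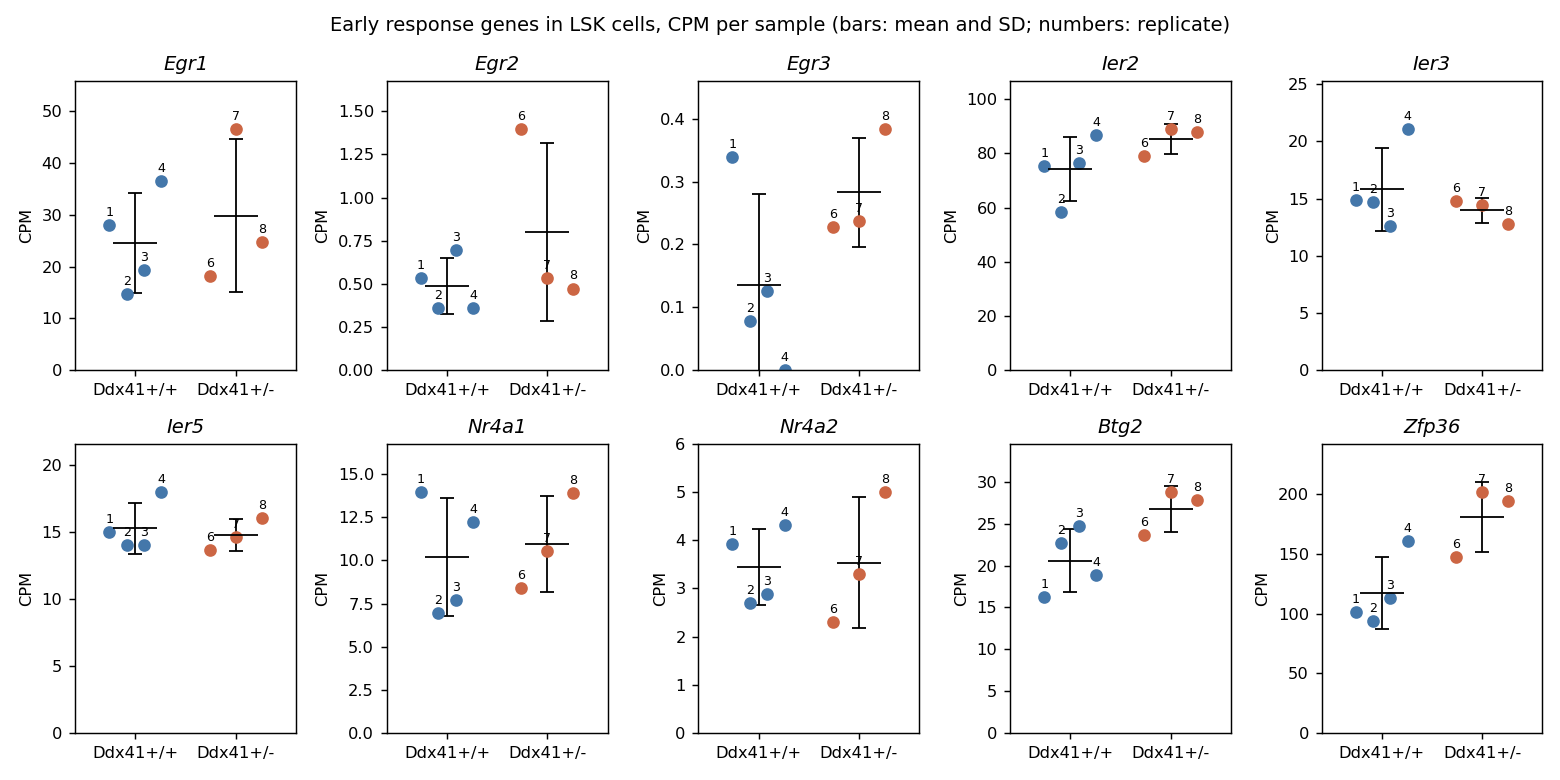
CPM of each of the 10 genes (vertical axes from 0) in every sample, with Ddx41+/+ in blue, Ddx41+/- in orange, the replicate number beside each point, and bars for mean and SD (n = 4 and n = 3). The genotypes overlap in every gene, and in Zfp36 Ddx41+/+ replicate 4, at 160.6 CPM, lies above 1 Ddx41+/- sample, replicate 6 at 147.8 CPM.

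The mRNA decay factors Zfp36 and Btg2 had the smallest p of the 9 genes. Zfp36 was at 101.3, 93.6, 112.8 and 160.6 CPM in Ddx41+/+ replicates 1 to 4 and at 147.8, 202.0 and 194.2 CPM in Ddx41+/- replicates 6 to 8. Every Ddx41+/- sample was above 3 of the 4 Ddx41+/+ samples, and Ddx41+/+ replicate 4 alone made the groups overlap. The means were 117.1 CPM for Ddx41+/+ (SD 30.1, n = 4) and 181.4 CPM for Ddx41+/- (SD 29.3, n = 3), a ratio of 1.55. This gave a log2 fold change of 0.63 (SE 0.21, unadjusted p = 0.0223, edgeR BH-adjusted p = 0.377). Without Ddx41+/+ replicate 4 the log2 fold change was 0.82 with an edgeR adjusted p of 0.0166, and this was the single fit of 15 alternatives in which any of the 9 genes passed. Without any other single sample the edgeR adjusted p of Zfp36 lay between 0.212 and 0.744. Zfp36 lies on chromosome 7 (28376784 to 28380253, minus strand, in GRCm38), where an antisense gene, Gm44710, overlaps it on the other strand. The labels name a stranded and the study's methods a different library kit, so whether reads of the strands were kept apart is not settled.

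Btg2 (chromosome 1, 134075170 to 134079120, minus strand) was at 16.2, 22.6, 24.7 and 18.8 CPM in Ddx41+/+ replicates 1 to 4 and at 23.6, 28.8 and 27.9 CPM in Ddx41+/- replicates 6 to 8. Ddx41+/- replicates 7 and 8 were above all Ddx41+/+ samples, and replicate 6 was just below Ddx41+/+ replicate 3. Its log2 fold change came to 0.38 (SE 0.13, unadjusted p = 0.012, edgeR adjusted p = 0.32). Unlike in Zfp36, Ddx41+/+ replicate 4 was not high in Btg2, and the largest Ddx41+/+ value was that of replicate 3. The fold change of Btg2 stayed between 0.28 and 0.48 on the log2 scale when single samples were left out, and no alternative brought its adjusted p under 0.193.

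The sequence before the start of transcription is shown for these 2 genes and for Nr4a1, whose fold change was close to 0, because it holds the elements through which SRF, CREB and the Egr factors are known to act on early response genes. The windows are the 250 bases before the annotated start, from RefSeq on GRCm38.p6, written 5′ to 3′ on the strand of the gene (Zfp36 chr7:28379229-28379478, minus strand, Btg2 chr1:134079156-134079405, minus strand, and Nr4a1 chr15:101266596-101266845, plus strand). Capitals mark matches on either strand to the CArG box bound by SRF, to the CREB element TGACGTCA, to its core TGACG, which is part of the full element, and to the Egr element GCGNGGGCG.
Zfp36: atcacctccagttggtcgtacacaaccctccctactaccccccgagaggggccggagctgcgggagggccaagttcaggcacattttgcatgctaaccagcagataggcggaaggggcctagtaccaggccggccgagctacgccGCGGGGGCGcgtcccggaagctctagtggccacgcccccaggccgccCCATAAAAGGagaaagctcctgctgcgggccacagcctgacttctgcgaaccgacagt
Btg2: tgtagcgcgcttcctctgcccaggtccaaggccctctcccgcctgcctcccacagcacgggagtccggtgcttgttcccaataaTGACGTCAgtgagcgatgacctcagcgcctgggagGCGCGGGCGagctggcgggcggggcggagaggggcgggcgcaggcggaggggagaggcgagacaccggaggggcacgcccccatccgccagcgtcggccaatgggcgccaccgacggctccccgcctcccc
Nr4a1: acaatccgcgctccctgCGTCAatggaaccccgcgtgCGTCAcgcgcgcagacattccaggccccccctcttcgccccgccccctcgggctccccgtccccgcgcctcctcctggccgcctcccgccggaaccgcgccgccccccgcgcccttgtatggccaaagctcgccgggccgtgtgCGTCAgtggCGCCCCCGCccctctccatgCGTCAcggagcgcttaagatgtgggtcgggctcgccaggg

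The Zfp36 window held a CArG box 58 bases before the start, a motif present in 1.47% of 32851 windows of all genes, and an Egr element 105 bases before it (4.70% of windows). The Btg2 window held a full CREB element 166 bases before the start (1.55% of windows) and an Egr element at 131 bases. The Nr4a1 window held no full CREB element but 4 cores on the opposite strand, at 233, 213, 69 and 40 bases (cores occur in 17.8% of windows), and an Egr element at 60 bases. Of the other members, Nr4a2 had 4 cores and an Egr element, 4 of the 5 annotated starts of Egr2 had a CArG box, and Ier3 and Ier5 had no match to the motifs searched. All but 1 of these Egr2 windows overlap and hold the same box, and the overlapping windows also hold cores. RefSeq windows were matched for 7 of the 10 genes, and those of Egr1, Egr3 and Ier2 were not used here. RefSeq starts of Zfp36 and Nr4a1 lie inside the gene spans of the annotation used for positions here. These are matches of letters, and no binding was measured.

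The order of the 7 samples in Zfp36 was set beside the marker lists. The summed level of 10 LSK markers (Kit, Ly6a, Cd34, Flt3, Slamf1, Cd48, Procr, Hlf, Mecom and Meis1) was 1897.4, 1942.7, 1873.6 and 1753.8 CPM in Ddx41+/+ replicates 1 to 4 and 1766.5, 1629.2 and 1629.4 CPM in Ddx41+/- replicates 6 to 8. Zfp36 ranked the samples in exactly the reverse order, over all samples and within each genotype. In particular, the Ddx41+/+ sample with the most Zfp36, replicate 4, had the lowest marker sum of its group, and the Ddx41+/- sample with the least Zfp36, replicate 6, had the highest. Over 7 samples Pearson's r was -0.996 (exact permutation p = 0.000198) and Spearman's rho was -1 (exact permutation p = 0.000397), both two-sided and the smallest that 7 samples allow for each measure. Among the 72 relations of 8 list sums with the 9 genes, the BH-adjusted p was 0.0143 for both measures. Without the 2 samples farthest from the median marker sum, r was -0.994. The relation was noticed after the values were seen, and the groups are too small for an r within each genotype. The permutations moved samples freely between genotypes. Zfp36 was mostly higher and the marker sum mostly lower in Ddx41+/-, so these p-values also take in the genotype difference. The order was not particular to Zfp36. Fos and Jun, AP-1 genes outside the 10, put the 7 samples in the same order as Zfp36. From Ddx41+/+ replicate 2 to Ddx41+/- replicate 7, Fos ran from 59.9 to 341.5 CPM and Jun from 80.1 to 314.8 CPM. Their relation to the marker sum was not tested.

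Single markers differed in how closely they followed Zfp36. All 10 had a negative r over the 7 samples, from -0.963 for Flt3, the receptor of lymphoid-primed progenitors, -0.906 for Mecom, -0.864 for Hlf and -0.849 for Cd34 to -0.040 for Kit and -0.019 for Ly6a, which encodes Sca1. The genes that define the gate, Kit and Ly6a, were thus the least related to it. In the genotype comparison 7 of the 10 markers had an unadjusted p under 0.05, all lower in Ddx41+/-, where 657 of 13340 genes were lower at this threshold. Of the 10 markers 4 were without overlap and lower in Ddx41+/-, where 5.21% of all genes were. None of the 10 had an edgeR adjusted p under 0.05 (smallest 0.0621, for Hlf). In bulk RNA, fewer cells of a type and less transcript per cell cannot be told apart. The neutrophil sum did not order the samples as Zfp36 did. Ddx41+/- replicate 6 had the highest neutrophil sum (2283.3 CPM) and the lowest Zfp36 of its group, and r was 0.471 (exact permutation p = 0.293, BH-adjusted 0.837 over the 72 relations; Spearman's rho 0.679, exact permutation p = 0.11, BH-adjusted 0.72; r without the 2 farthest samples 0.778). For Btg2 the r with the LSK sum was -0.645 (exact permutation p = 0.131, BH-adjusted 0.837; rho -0.679, exact permutation p = 0.11, BH-adjusted 0.72; r without the 2 farthest samples -0.626). Whether cell composition had a part in the levels of Zfp36 or Btg2 was not tested.

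**Figure D2:**
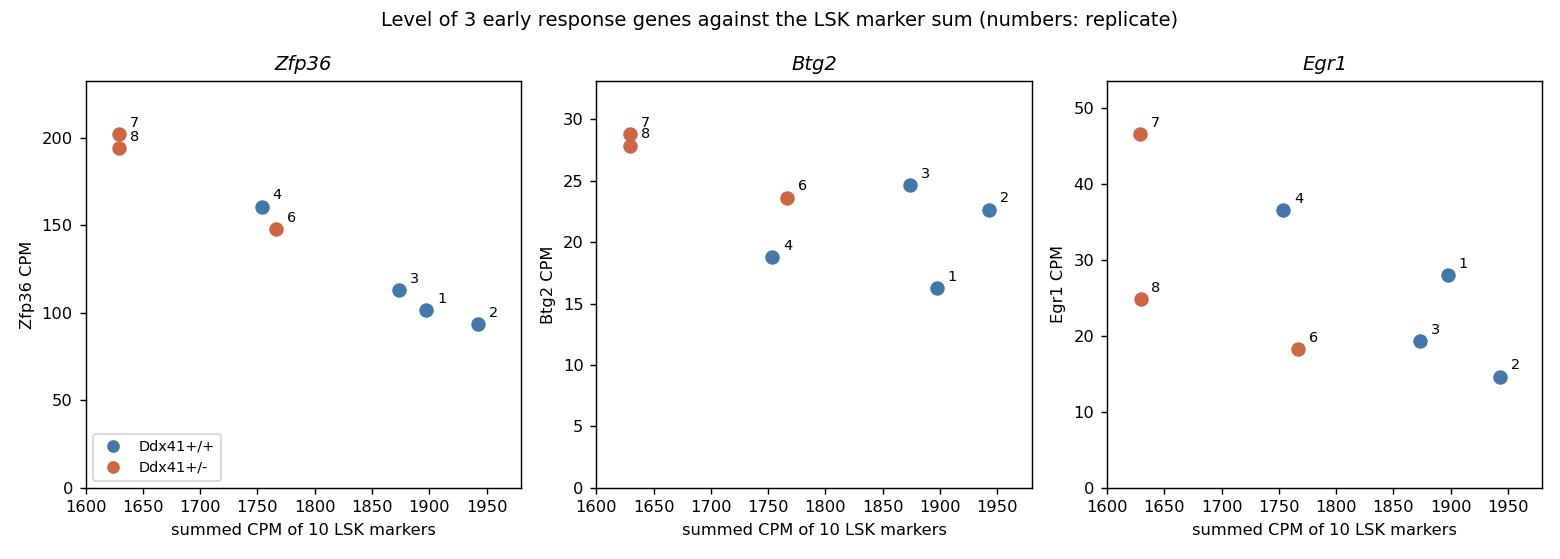
CPM of Zfp36, Btg2 and Egr1 (vertical axes from 0) against the summed CPM of 10 LSK markers (horizontal axes, not from 0) in the 7 samples, with Ddx41+/+ in blue, Ddx41+/- in orange and the replicate number beside each point. Zfp36 falls steadily from 202.0 CPM at a marker sum of 1629.2 to 93.6 CPM at 1942.7, whereas points scatter more widely for Btg2 and Egr1.

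The Ier genes were next. Ier2 (chromosome 8, 84661331 to 84662852, 1 exon) was at 75.5, 58.3, 76.6 and 86.9 CPM in Ddx41+/+ replicates 1 to 4 and at 79.0, 89.0 and 87.9 CPM in Ddx41+/- replicates 6 to 8. Its lowest sample was Ddx41+/+ replicate 2, and the other samples lay close together. The log2 fold change was 0.20 (SE 0.11, edgeR adjusted p = 0.547), and it was 0.10 without that sample. Ier2 and Zfp36 put the 7 samples in the same order (Spearman's rho 1, exact permutation p = 0.000397, BH-adjusted 0.0143 over 36 pairs of the 9 genes). Pearson's r was 0.862 (exact permutation p = 0.00476, BH-adjusted 0.171), and 0.928 without the 2 samples farthest from the median of Ier2. Ier2 also had the reverse order of the LSK marker sum, with a rho of -1 (exact permutation p = 0.000397, BH-adjusted 0.0143 over 72 relations) and an r of -0.872 (exact permutation p = 0.00218, BH-adjusted 0.0786; -0.892 without the 2 farthest samples). The rho of -1, for Ier2 as for Zfp36, depends on a near tie. Ddx41+/- replicates 7 and 8 had marker sums of 1629.2 and 1629.4 CPM.

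Ier3 (chromosome 17, 35821684 to 35822923) and Ier5 (chromosome 1, 155096361 to 155099636) were each highest in Ddx41+/+ replicate 4. Ier3 was at 14.9, 14.7, 12.6 and 21.1 CPM in Ddx41+/+ replicates 1 to 4 and at 14.8, 14.5 and 12.7 CPM in the Ddx41+/- samples. Ier5 was at 15.0, 14.1, 14.0 and 17.99 CPM in Ddx41+/+ and at 13.7, 14.6 and 16.1 CPM in Ddx41+/- samples. Apart from replicate 4, Ier3 ran only from 12.6 to 14.9 CPM and Ier5 from 13.7 to 16.1 CPM. The log2 fold changes were -0.18 (SE 0.16) for Ier3 and -0.046 (SE 0.13) for Ier5, with edgeR adjusted p-values of 0.743 and 0.934. Without Ddx41+/+ replicate 4 that of Ier3 was -0.0079 and that of Ier5 was 0.043.

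Egr1 varied widely within both genotypes. It was at 27.9, 14.6, 19.3 and 36.5 CPM in Ddx41+/+ replicates 1 to 4 and at 18.3, 46.5 and 24.8 CPM in Ddx41+/- replicates 6 to 8. The highest and the second-highest samples were of different genotypes, and 2 of the 3 Ddx41+/- samples lay within the Ddx41+/+ range. The coefficient of variation was 39.4% in Ddx41+/+ and 49.6% in Ddx41+/- samples, where the median over all genes tested was 9.54% in Ddx41+/+. The log2 fold change was 0.28 (SE 0.46, edgeR adjusted p = 0.885), and it turned to -0.19 without Ddx41+/- replicate 7. That sample also had the highest sum of B-lineage markers, 425.7 CPM (346.1 CPM of it Jchain), against at most 193.8 CPM in the others. The part of these cells in its Egr1 level was not tested.

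Egr2 and Egr3 were scarce. Egr2 (chromosome 10, 67535475 to 67542188) had 22, 14, 22 and 13 counts in Ddx41+/+ replicates 1 to 4 and 55, 18 and 21 counts in Ddx41+/- replicates 6 to 8. Only replicate 6 stood above the rest, at 1.396 CPM against at most 0.695 CPM elsewhere. The log2 fold change of 0.72 (SE 0.58, edgeR adjusted p = 0.709) was 0.050 without this sample. Egr3 (chromosome 14, 70077203 to 70082614) had 14, 3, 4 and 0 counts in Ddx41+/+ and 9, 8 and 17 counts in Ddx41+/- samples. It was tested only in the fit with no filter on low counts, where its log2 fold change was 1.03 (SE 1.17, edgeR adjusted p = 0.797). These few counts leave the fold change of Egr3 imprecise.

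The nuclear receptors Nr4a1 and Nr4a2 had similar patterns over the samples and fold changes between genotypes close to 0. Nr4a1 (chromosome 15, 101254269 to 101274795) was at 14.0, 6.94, 7.71 and 12.2 CPM in Ddx41+/+ replicates 1 to 4 and at 8.43, 10.5 and 13.9 CPM in Ddx41+/- replicates 6 to 8. Nr4a2 (chromosome 2, 57106830 to 57124003) was at 3.92, 2.69, 2.87 and 4.31 CPM in Ddx41+/+ and at 2.31, 3.29 and 5.01 CPM in Ddx41+/- samples. Both were higher in Ddx41+/+ replicates 1 and 4 than in replicates 2 and 3, and both were highest in replicate 8 and lowest in replicate 6 among the Ddx41+/- samples. Pearson's r was 0.888 (exact permutation p = 0.0131) and Spearman's rho 0.786 (exact permutation p = 0.0480), neither of which passed after BH adjustment over the 36 pairs (0.236 and 0.346). Without the 2 samples farthest from the median of Nr4a1, r was 0.952. The log2 fold changes between genotypes were 0.10 (SE 0.25) for Nr4a1 and 0.038 (SE 0.28) for Nr4a2, with edgeR adjusted p-values of 0.921 and 0.978. Each changed sign in 3 of the 7 fits without 1 sample.

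**Figure D3:**
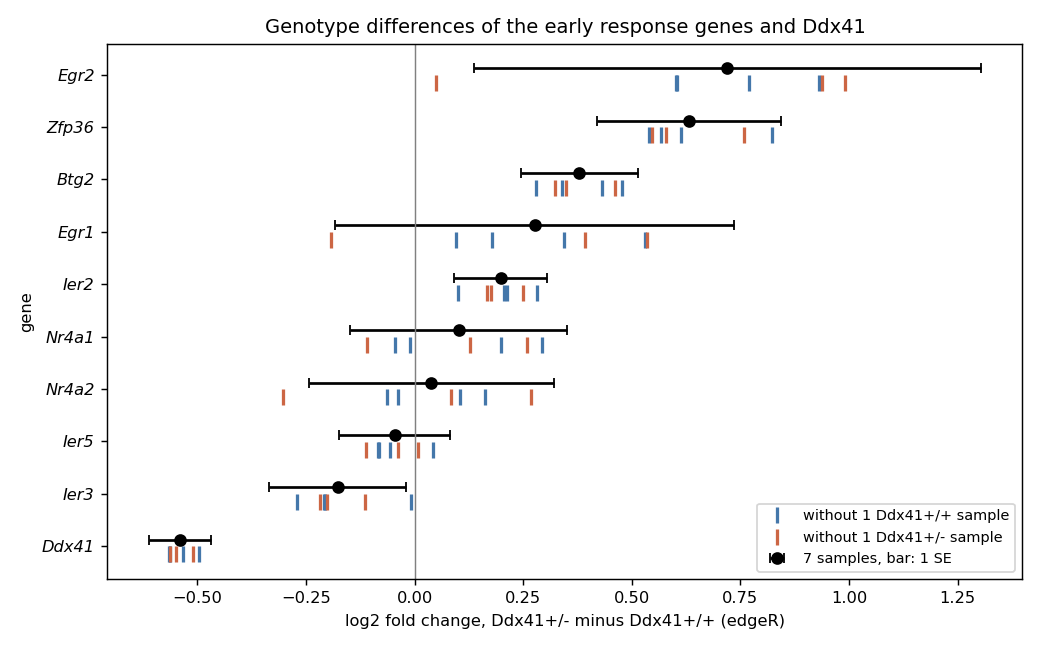
Log2 fold change (horizontal axis, Ddx41+/- minus Ddx41+/+) of the 9 genes tested and of Ddx41, with black points and bars for the estimate and 1 SE in all 7 samples, and ticks below for fits without 1 sample (blue, without a Ddx41+/+ sample; orange, without a Ddx41+/- sample). Zfp36, Btg2 and Ier2 stay above 0 in every fit, Egr1, Ier5, Nr4a1 and Nr4a2 lie on both sides, and Ddx41 stays between -0.56 and -0.50.

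The genes did not form 1 block across samples, although most pairs had a positive r. On log2 CPM, 27 of the 36 pairs of the 9 genes tested were positive, with a median r of 0.33. After centering on the genotype means 22 were positive, with a median of 0.46. Every negative pair held Egr2 or Btg2. Levels were standardized per gene, as log2 CPM minus its mean over its SD. Ddx41+/+ replicate 4 was the highest of its group in 6 of the 10 genes, and replicate 2 was the lowest of all samples in 4. Ddx41+/- replicate 7 was the highest of all samples in 4 genes, Egr1, Ier2, Btg2 and Zfp36. The mean over the 9 genes tested was highest in Ddx41+/+ replicate 4 (0.63), followed by Ddx41+/- replicates 8 (0.53) and 7 (0.47), and lowest in Ddx41+/+ replicate 2 (-0.94). The sample with the highest mean was therefore a wild-type one.

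**Figure D4:**
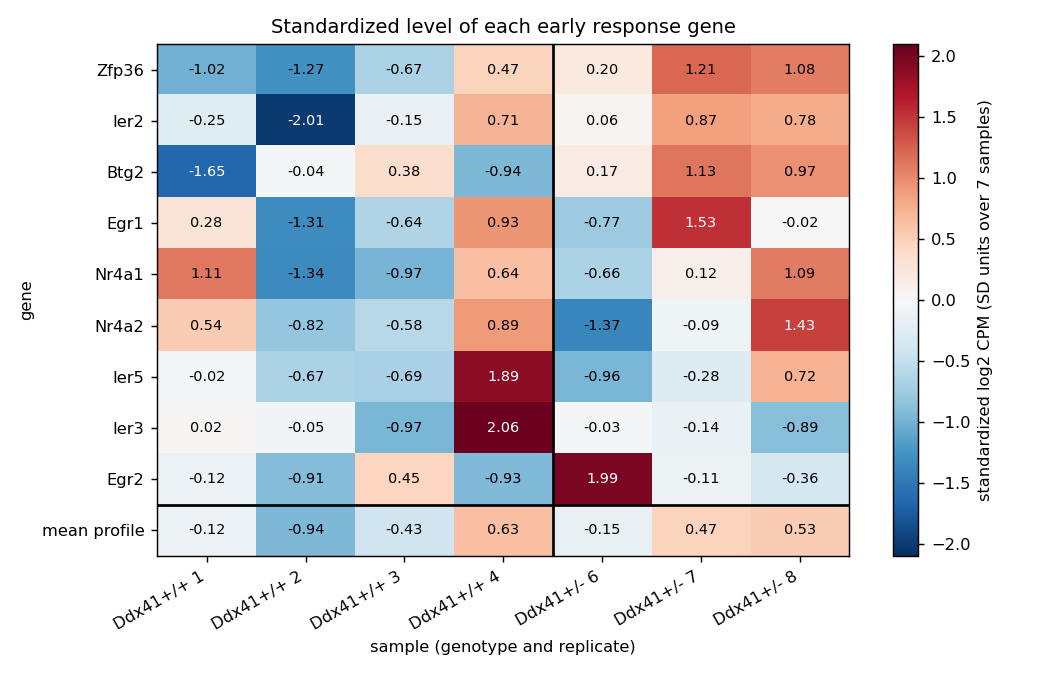
Standardized log2 CPM (color and number, in SD units over the 7 samples) of the 9 genes tested, with a bottom row for their mean and a vertical line between the 4 Ddx41+/+ and the 3 Ddx41+/- samples. Ier3 and Ier5 peak in Ddx41+/+ replicate 4 (2.06 and 1.89), Egr2 in Ddx41+/- replicate 6 (1.99), and Zfp36 and Btg2 in Ddx41+/- replicate 7 (1.21 and 1.13).

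The genes most like this mean profile over the 7 samples were Mfn2, Junb, Slc27a3, Rnf8-cmtr1, Pxk, Ints4, Slc16a6, Mast2, Pabpc4 and Zfp142, with Pearson's r from 0.953 to 0.991. The r is used here to rank genes, and with 7 points and 13340 genes high values are easily reached. Junb, an AP-1 subunit and early response gene, was the second (r = 0.981). None of the 10 differed between genotypes with edgeR, as adjusted p-values ran from 0.587 to 0.884.

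The relatives of the 10 genes were examined as a list of 12, of which 10 were tested. None passed with edgeR over all genes, 2 had an unadjusted p under 0.05 (1 higher and 1 lower in Ddx41+/-), and the smallest adjusted p-values were 0.366 for Zfp36l2, 0.427 for Btg1 and 0.596 for Nab2. Zfp36l2, the most abundant Zfp36 relative, had a lower mean in Ddx41+/- samples (634.6 ± 61.3 CPM, SD, n = 3) than in Ddx41+/+ samples (765.5 ± 107.8 CPM, SD, n = 4), with a log2 fold change of -0.27 (SE 0.10). Zfp36 and Zfp36l2 thus had fold changes of opposite sign. For Btg1, a paralog of Btg2, the log2 fold change was 0.18 (SE 0.081), and for Nab2, a co-repressor of Egr1, it was -0.25 (SE 0.15). The median over the list was -0.016.

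Of 27 genes on the route from ERK to SRF and CREB, 27 were tested, 0 passed with edgeR and 1 had an unadjusted p under 0.05, with a median log2 fold change of -0.031. Creb1, which encodes the factor that binds the element shown for Btg2, was at 103.4, 96.7, 98.9 and 93.6 CPM in Ddx41+/+ replicates 1 to 4 and at 110.7, 123.3 and 123.3 CPM in Ddx41+/- replicates 6 to 8. The groups did not overlap, and the log2 fold change was 0.28 (SE 0.067, edgeR adjusted p = 0.108). DESeq2 called it. The kinases Braf and Rps6ka5 followed, with log2 fold changes of 0.19 and 0.15 and edgeR adjusted p-values of 0.478 and 0.555.

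Among 34 other early response genes 31 were tested. Of these, 1 passed with edgeR, Rhob, a small GTPase (log2 fold change 0.46, SE 0.083, adjusted p = 0.0339), and 8 had an unadjusted p under 0.05, 7 higher and 1 lower in Ddx41+/-. Rhob was no longer called without Ddx41+/+ replicate 2 or 3, without Ddx41+/- replicate 7 or 8, with library totals only, or with a non-robust dispersion. The median log2 fold change over the list was 0.21. The genes next in p were Dusp2 (log2 fold change -0.45, edgeR adjusted p = 0.30) and Klf6 (0.60, edgeR adjusted p = 0.314). Like Zfp36, Dusp1 was higher in Ddx41+/+ replicate 4 than in Ddx41+/- replicate 6, with 56.1 and 50.8 CPM.

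The mRNA decay machinery came last. Of 11 CCR4-NOT subunits 11 were tested, 0 passed with edgeR and 0 had an unadjusted p under 0.05, with log2 fold changes from -0.074 to 0.13 and the smallest adjusted p-values at 0.627 for Cnot1, 0.657 for Cnot7 and 0.687 for Cnot4. Of 14 mRNAs known to be bound by Zfp36, Ier3 among them, 9 were tested and 0 passed, with 0 at an unadjusted p under 0.05 and a median log2 fold change of 0.28. The chemokines Ccl3 and Ccl4 were at 0.69 (SE 0.34) and 0.35 (SE 0.24), and Myc, by far the most abundant of them, was at -0.24 (SE 0.16), with edgeR adjusted p-values of 0.532, 0.648 and 0.675. Of 12 heat-shock genes, which share inducers with the early response genes, 11 were tested and 0 passed (smallest edgeR adjusted p = 0.318, for Hsph1), while 3 had an unadjusted p under 0.05, all higher in Ddx41+/-. With DESeq2, Creb1, Klf6 and Rhob were the 3 genes called over these lists.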

How the data were processed

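Poly(A) RNA of LSK cells was sequenced, and the authors deposited whole-number read counts without normalization, with 1 row per gene symbol and 1 column per sample. The submitters' processing notes name FastQC 0.11.7, HISAT2 2.0.5, featureCounts 1.5.2 and the mm10 build. Settings for strand and for shared reads are not given in the sources used here. All 7 columns were used (0 unused), and every row was a gene symbol.

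Groups were the genotypes that the labels give. After filterByExpr, edgeR 4.0.16 (R 4.3.3) was used for a quasi-likelihood test of genotype (TMM scaling, robust fit, BH adjustment over 13340 genes, threshold 0.05). The fit was tested on simulated data. Nothing states separate donors for the replicates, so p-values measure the spread between these samples. CPM used TMM-scaled library sizes, and log2 CPM a prior count of 2. No pair of samples agreed within sampling noise (chi-square per gene of at least 13.7 over 21 pairs). Correlations over samples were tested by exact permutation, two-sided, with samples moved freely between genotypes. A genotype difference in both measures therefore enters the p-value of their correlation. Positions and exon lengths came from GENCODE M21 (GRCm38), which is the build mm10, by symbol.

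The members and gene lists were chosen with earlier results of these data known. Named were the 10 members, Ddx41, listed genes with an adjusted p under 0.05, the 3 smallest p-values per pathway list, and the 10 genes most like the members' mean profile (predicted genes left out). Other listed genes, among them Fos, Jun, Dusp1 and Hsph1, and markers of LSK and other cells were named after their values were seen. Lists are described by counts. Of the list genes, Trbc2 and Ahsp were not matched. Alternatives were other scaling factors, no filter, DESeq2 1.42.0, limma-voom (limma 3.58.1) with and without sample quality weights, a non-robust dispersion and leaving out each sample.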

Additional observations from a re-analysis of the deposited data

How the results depend on the processing

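No paired analysis was possible because the genotypes share no replicate numbers. The number of early response genes called was 0 of 9 in all 7 samples and under the 8 alternatives that changed the scaling, the filter, the dispersion or the test (0 of 10 with no filter, where Egr3 was tested too), and ranged from 0 to 1 over the 7 fits without 1 sample, where the 1 was Zfp36 without Ddx41+/+ replicate 4 (edgeR adjusted p = 0.0166). Directions turned for Egr1 without Ddx41+/- replicate 7 (log2 fold change -0.19, range over these fits up to 0.53), for Ier5 without Ddx41+/+ replicate 4 (0.043) or Ddx41+/- replicate 6 (0.0070), for Nr4a1 without Ddx41+/+ replicate 2 (-0.045) or 3 (-0.0098) or Ddx41+/- replicate 8 (-0.11, up to 0.29), and for Nr4a2 without Ddx41+/+ replicate 2 (-0.064) or 3 (-0.038) or Ddx41+/- replicate 8 (-0.30, up to 0.27). The cause was not tested. Of the 9 genes, Egr2, Ier2, Ier3, Btg2 and Zfp36 kept their direction in all 15 alternatives. The number of all genes called (29) was 15 with library totals only, 91 with no filter, 164 with DESeq2, 14 with a non-robust dispersion, and from 7 to 41 without 1 sample. Of the other genes in the 6 pathway lists (marker lists not counted) 1 was called, and 0 with library totals only, 3 with DESeq2 (Creb1, Klf6 and Rhob), 0 with a non-robust dispersion, and from 0 to 3 without 1 sample. The r of Zfp36 with the LSK marker sum stayed between -0.997 and -0.995 without 1 sample and was -0.944 for the mean log2 CPM of the markers, both chosen after seeing the data. With a prior count of 0.5 the genes most like the mean profile were compared again, and 10 of 10 were shared. Depth limited Egr2 and Egr3, which had at most 55 and 17 counts in a sample.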

Other observations

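Within the Ddx41+/+ group no value of the 10 genes or of Ddx41 stood apart by Dixon's ratio at the 95% level, and the largest ratios were those of Ddx41+/+ replicate 4 in Ier5 (0.763), Ier3 (0.729) and Zfp36 (0.713). The 10 genes together held between 228.0 CPM in Ddx41+/+ replicate 2 and 410.0 CPM in Ddx41+/- replicate 7. Zfp36 made up 37.6%, 41.0%, 41.6% and 44.8% of this sum in the Ddx41+/+ samples. It made up 47.8%, 49.3% and 50.7% in the Ddx41+/- samples, and the groups did not overlap in this share, which was looked at after the values were seen and was not tested. Btg2 followed the summed level of 12 heat-shock genes more closely than any other list, with an r of 0.898 (exact permutation p = 0.00575, BH-adjusted 0.138 over 72 relations), a rho of 0.964 (exact permutation p = 0.00278, BH-adjusted 0.0667) and an r of 0.957 without the 2 samples farthest from the median, so it did not pass the correction. Of this sum, which ran from 7956.3 to 9126.0 CPM, Hsp90ab1 alone held 4222.4 to 4647.5 CPM. Hspa1a and Hspa1b held at most 37.9 and 58.8 CPM.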
